A study of Mus musculus with 14 samples.

Results

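The hypoxia response of mouse cells carrying the TIN mutant of naked mole rat (NMR) TRF1 was compared, gene by gene, with that of cells carrying the GLAD mutant. For each gene the effect of hypoxia in TIN cells (hypoxia minus normoxia, log2) was taken, and the effect in GLAD cells was subtracted from it. This difference is called the interaction. A positive interaction means that the gene rose more, or fell less, in TIN cells than in GLAD cells. It was estimated for 16157 genes with at least 1 CPM (the deposited unit, a gene's counts relative to its library's total) in at least 2 libraries, of 32273 genes above 0 in any library and 52636 genes in the deposited table. A gene was called at an adjusted p under 0.05 in limma, with Benjamini-Hochberg adjustment over the 16157 genes, and every adjusted p below is from that fit. Values after ± are standard errors of the fit unless called SD.

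The cells were transformed mouse embryonic fibroblasts in which mouse TRF1, encoded by Terf1, had been replaced by an NMR form. The TIN form carried Ala105Thr and the GLAD form carried Glu69Lys, Val70Ala and Ala75Thr, so neither line held unmutated NMR TRF1. Of the 14 libraries of the series, 8 formed the contrast: TIN cells at 1% oxygen (hypoxia), TIN cells at atmospheric oxygen (normoxia), GLAD cells in hypoxia and GLAD cells in normoxia, with libraries A and B in each. The other 6 libraries, from the GLAD/TIN double mutant in both conditions and from cells labelled as wild-type NMR TRF1 in normoxia (whose table columns carry the word Mouse), entered the fit for its estimate of the spread. The labels do not say whether A and B were separate cultures, so the p-values cover only the spread of these libraries, and that spread may be technical. They also do not say how many lines were made of each mutant, so a mutant and its line cannot be told apart.

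TRF1 is a shelterin protein that binds the double-stranded repeats of telomeres and is needed for their replication. In low oxygen, hydroxylation of the hypoxia-inducible factors (HIF) stops, the factors accumulate, and genes of glycolysis, pH control, blood vessel growth and mitophagy rise. Interferon-stimulated genes, in contrast, are switched on by STAT and IRF factors after nucleic acids of viruses or of the cell itself are sensed, and fibroblasts can respond in this way.

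The libraries held an estimated 11917013 to 15023546 reads, at which 3 reads, taken as the limit of detection, were 0.200 to 0.252 CPM. These limits cover counting error only. Libraries A and B of each group differed by more than counting noise, with a chi-square per degree of freedom of 1.46 in TIN hypoxia, 3.36 in TIN normoxia, 3.22 in GLAD hypoxia and 2.21 in GLAD normoxia, and each was counted as its own library. The fibroblast genes Col1a1, Col1a2, Vim and Pdgfrb were read at 99.8 CPM or more in all 8 libraries, while Thy1 reached at most 0.200 CPM. Of the markers of other cell types, Epcam, Cdh1, Cdh5, Ptprc, Adgre1, Myod1, Sox10 and Adipoq stayed at or below 0.5 CPM. Other listed markers were well above the limit of detection. The neural list had the microtubule protein Map2 at 131 to 408 CPM and the tubulin Tubb3 at up to 60.3 CPM, the myeloid list had the receptor Csf1r at 16.7 to 27.3 CPM and the endothelial list the receptor Tek at up to 13.3 CPM. Also read were the lysosomal protein Cd68 at up to 45.2 CPM, the keratin Krt19 at up to 60.9 CPM and the fatty acid carrier Fabp4 at up to 60.7 CPM, with interactions of 1.10, -0.67 and 1.34. Whether other cells took part in any result was not tested beyond these levels. In bulk RNA a change in the share of cells and a change in RNA per cell cannot be told apart. Terf1 (ENSMUSG00000025925, chromosome 1, 15805646 to 15844052 on GRCm38) was read at 114 and 114 CPM in TIN hypoxia, 179.8 and 175 CPM in TIN normoxia, 94.7 and 88.7 CPM in GLAD hypoxia and 149.7 and 148 CPM in GLAD normoxia. Its interaction was 0.07 ± 0.12 (adjusted p = 0.709), and the counts cannot separate mouse from NMR reads, so they check neither the replacement nor the labels.

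The response to hypoxia differed between TIN and GLAD cells for 5590 of the 16157 genes, or 34.6%. The interaction was positive for 3023 genes (18.7%) and negative for 2567 (15.9%). It reached at least 2-fold for 1194 genes (7.39%), 606 positive and 588 negative. The median over all genes was 0.05, the middle 50% lay between -0.31 and 0.38, and the outer 5% on each side began at -0.90 and 0.92. Most differences were thus small on the log2 scale while the libraries of a group lay close together, with an SD between A and B of 0.15 to 0.16 (log2) in the 4 groups.

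Taken alone, hypoxia raised 4643 genes (28.7%) and lowered 4084 (25.3%) in TIN cells, and raised 3703 (22.9%) and lowered 4022 (24.9%) in GLAD cells. Of the 3023 genes with a positive interaction, 1060 rose in TIN cells without a call in GLAD cells, 966 fell in GLAD cells without a call in TIN cells, 343 rose in both, 175 fell in both and 96 were called in neither. The remaining 383 (2.37% of all genes) rose in TIN cells and fell in GLAD cells. Of the 2567 genes with a negative interaction, 1092 fell in TIN cells alone, 593 rose in GLAD cells alone, 272 rose in both, 268 fell in both and 58 were called in neither. The remaining 284 (1.76%) fell in TIN cells and rose in GLAD cells. Reversals were mostly small: both effects reached 2-fold in 5 genes of the first direction and 2 of the second. The interaction and the single effects come from the same 8 libraries, so these classes describe 1 set of values. Leaving out 1 of the 8 libraries at a time gave 384 to 460 reversed genes against 667 with all of them, with 1 library then left in that group. The fall passed 1.5 times without TIN hypoxia A (389), TIN normoxia A (444), GLAD hypoxia A (384) or B (441), or GLAD normoxia A (404) or B (384).

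**Figure D1:**
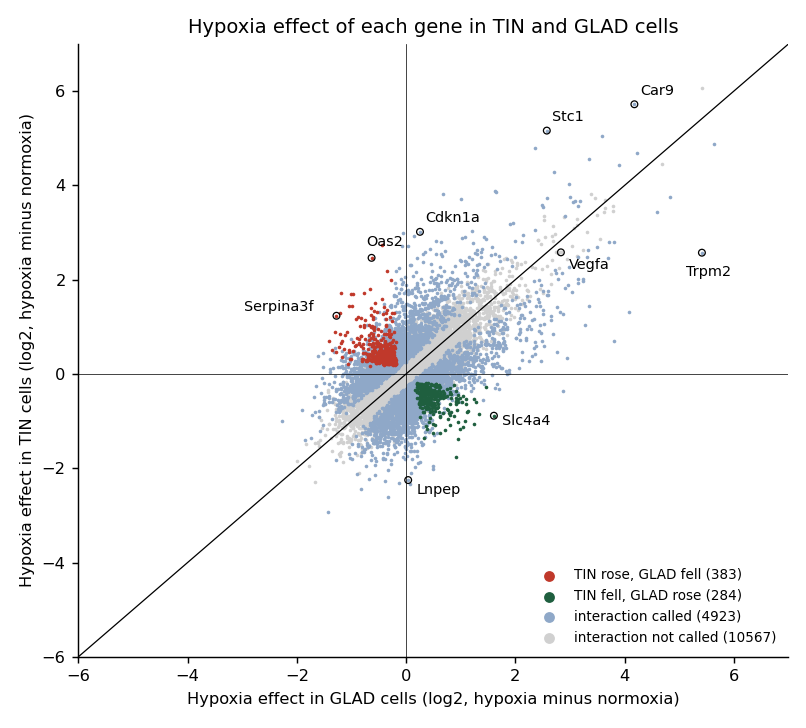
Hypoxia effect in TIN cells (vertical axis, log2) against that in GLAD cells (horizontal axis, log2) for the 16157 genes tested, with the line of equal effects. The 383 genes that rose in TIN and fell in GLAD cells (red) and the 284 that did the reverse (green) sit close to the origin, while Stc1, Car9 and Trpm2 rose in both lines by unequal amounts.

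Interferon-stimulated genes had the largest median interaction of the 22 lists. Of the 40 listed genes measured, 34 had a positive and 1 a negative interaction, with a median of 1.46 beside 0.05 over all genes. In TIN cells 35 rose and 1 fell, in GLAD cells 7 rose and 18 fell, and 14 did both, rising in TIN and falling in GLAD cells. The median hypoxia effect was 1.24 in TIN cells and -0.18 in GLAD cells. Of all genes, 18.7% had a positive and 15.9% a negative interaction, and 2.37% rose in TIN and fell in GLAD cells. In TIN cells 28.7% of all genes rose and 25.3% fell, and in GLAD cells 22.9% rose and 24.9% fell. Oas2, which makes the second messenger of the RNA-degrading antiviral pathway (ENSMUSG00000032690, chromosome 5, 120730333 to 120749853), was read at 12.3 and 12.4 CPM in TIN hypoxia, 1.98 and 1.69 CPM in TIN normoxia, 235 and 246 CPM in GLAD hypoxia and 369 and 377 CPM in GLAD normoxia. Its 2 TIN hypoxia libraries lay above the 2 TIN normoxia libraries and its GLAD hypoxia libraries below the GLAD normoxia libraries, with no overlap, and all TIN values were far below all GLAD values. The interaction was 3.10 ± 0.11 (adjusted p = 1.0e-11).

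The nucleic acid sensor Zbp1 was read at 16.5 and 17.8 CPM in TIN hypoxia, 2.27 and 1.31 CPM in TIN normoxia, 46.5 and 45.5 CPM in GLAD hypoxia and 46.4 and 48.9 CPM in GLAD normoxia. Only the TIN libraries were split by oxygen, and the interaction was 3.03 ± 0.20 (adjusted p = 1.5e-08). Irf7, a transcription factor that amplifies interferon signalling (ENSMUSG00000025498, chromosome 7, 141262706 to 141266481), was read at 74.2 and 77.0 CPM in TIN hypoxia, 14.3 and 15.3 CPM in TIN normoxia, 542 and 588 CPM in GLAD hypoxia and 507 and 561 CPM in GLAD normoxia. It rose in TIN cells by 2.31 while the GLAD libraries of the 2 conditions overlapped, and the interaction was 2.23 ± 0.12 (adjusted p = 6.7e-10). The ubiquitin-like protein Isg15 had an interaction of 2.46 ± 0.12 (adjusted p = 3.7e-10), Oasl2 of 2.53, the GTPase Igtp of 2.48, Ifi44 of 2.12 and Ifit3 of 1.94. Signalling factors of the pathway had smaller differences, of 0.91 for Stat2, 0.43 for Irf9 and 0.40 for Irf1, each called. Ifit2, a relative of Ifit3, was the 1 negative call, at -0.63, with hypoxia effects of -1.22 in TIN and -0.59 in GLAD cells. Reads of near-identical copies (Ifit3 and Ifit3b, Oas1a and Oas1b) cannot be placed with certainty.

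These genes started from unequal levels. In normoxia both TIN libraries lay below both GLAD libraries for 40 of the 40 interferon genes, as they did for 39.9% of all genes, with a median TIN minus GLAD difference of -3.71. In hypoxia they still lay below for 40 of 40 (43.4% of all genes), with a median difference of -2.05. The summed level of the 40 genes was 1979 and 1920.3 CPM in TIN hypoxia, 1054 and 1066 CPM in TIN normoxia, 9052 and 8791 CPM in GLAD hypoxia and 10781 and 10761 CPM in GLAD normoxia. The gap was thus wide in normoxia and narrower in hypoxia, and these differences share their libraries with the interaction.

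The proximal promoters of 29 interferon genes are in the RefSeq table used here (GRCm38.p6, 250 bases before to 50 after the annotated start). The letters GAAANNGAA, a core of the element bound by IRF factors, were searched on both strands, with overlapping matches allowed. They occurred in 19 of the 29 (65.5%), in 8.51% of tested genes with a promoter and in 9.76% of all genes with one. Among 279 genes with a promoter that rose in TIN and fell in GLAD cells 36 (12.9%) held them, and among 192 of the reverse group 17 (8.85%). A gene was counted if any of its promoters held a match. Irf7, Oasl2 and Ifi47, with interactions of 2.23, 2.53 and 2.48, held none. The 200 bases before the start are shown for 4 genes with a match and a positive interaction, 5′ to 3′ on the gene's strand, with matches in capitals. Isg15 (chr4:156200819-156201018, minus strand) has 3 overlapping matches between 78 and 58 bases before the start, Ifit3 (chr19:34583329-34583528, plus strand) has 3 on the opposite strand, and the GTPase genes Igtp (chr11:58199356-58199555, plus strand) and Irgm2 (chr11:58214777-58214976, plus strand) have 1 each, at 34 to 26 and at 64 to 56 bases before the start.
Isg15: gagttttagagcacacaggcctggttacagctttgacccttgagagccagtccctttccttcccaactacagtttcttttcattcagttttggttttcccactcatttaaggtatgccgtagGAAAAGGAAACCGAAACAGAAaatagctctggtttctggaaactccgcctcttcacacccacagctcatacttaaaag
Ifit3: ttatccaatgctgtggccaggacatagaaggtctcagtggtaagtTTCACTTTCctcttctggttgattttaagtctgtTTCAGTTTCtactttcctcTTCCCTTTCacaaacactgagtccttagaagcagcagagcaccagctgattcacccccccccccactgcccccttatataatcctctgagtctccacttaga
Igtp: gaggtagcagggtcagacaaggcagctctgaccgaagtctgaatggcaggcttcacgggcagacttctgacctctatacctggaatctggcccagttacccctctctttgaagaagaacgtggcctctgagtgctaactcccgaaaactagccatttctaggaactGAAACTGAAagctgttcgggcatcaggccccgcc
Irgm2: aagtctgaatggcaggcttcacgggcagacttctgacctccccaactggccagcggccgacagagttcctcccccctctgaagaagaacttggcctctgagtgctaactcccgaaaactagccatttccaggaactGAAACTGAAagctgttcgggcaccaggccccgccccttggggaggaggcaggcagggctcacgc
A match describes these letters and says nothing of whether a factor was bound. Igtp rose by 1.71 in TIN and by -0.77 in GLAD cells, and Irgm2 rose by 1.01 in TIN and fell by 0.84 in GLAD cells.

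Genes of antigen presentation on class I molecules, which show peptides from inside the cell to T cells, moved the same way. All 14 listed genes had a positive interaction, with a median of 1.00. In TIN cells 11 rose and 1 fell, in GLAD cells 3 rose and 8 fell, and 5 rose in TIN and fell in GLAD cells. Of all genes, 18.7% had a positive interaction, and 2.37% rose in TIN and fell in GLAD cells. In TIN cells 28.7% of all genes rose and 25.3% fell, and in GLAD cells 22.9% rose and 24.9% fell. Interferon raises the class I genes too, and several stand near each other on chromosome 17. The heavy chain gene H2-K1 (ENSMUSG00000061232, chromosome 17, 33996017 to 34000347) was read at 284 and 268 CPM in TIN hypoxia, 36.2 and 40.7 CPM in TIN normoxia, 670.1 and 709.7 CPM in GLAD hypoxia and 453 and 497 CPM in GLAD normoxia. Hypoxia libraries lay above normoxia libraries in both lines, with a far wider step in TIN cells, and the interaction was 2.29 ± 0.12 (adjusted p = 4.1e-10). The peptide transporter Tap1 was read at 22.8 and 22.2 CPM in TIN hypoxia, 9.07 and 8.66 CPM in TIN normoxia, 98.1 and 107 CPM in GLAD hypoxia and 121 and 126 CPM in GLAD normoxia. It rose by 1.30 in TIN cells and fell by 0.26 in GLAD cells, for an interaction of 1.56 ± 0.11 (adjusted p = 2.2e-08). The immunoproteasome subunit Psmb8 had an interaction of 2.07, H2-D1 of 1.31, Tap2 of 1.34 and the light chain B2m of 0.57. The H2 heavy chain genes are close copies, and their reads may be split between them. Both TIN libraries lay below both GLAD libraries for all 14 genes in each condition, against 43.4% of all genes in hypoxia and 39.9% in normoxia.

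**Figure D2:**
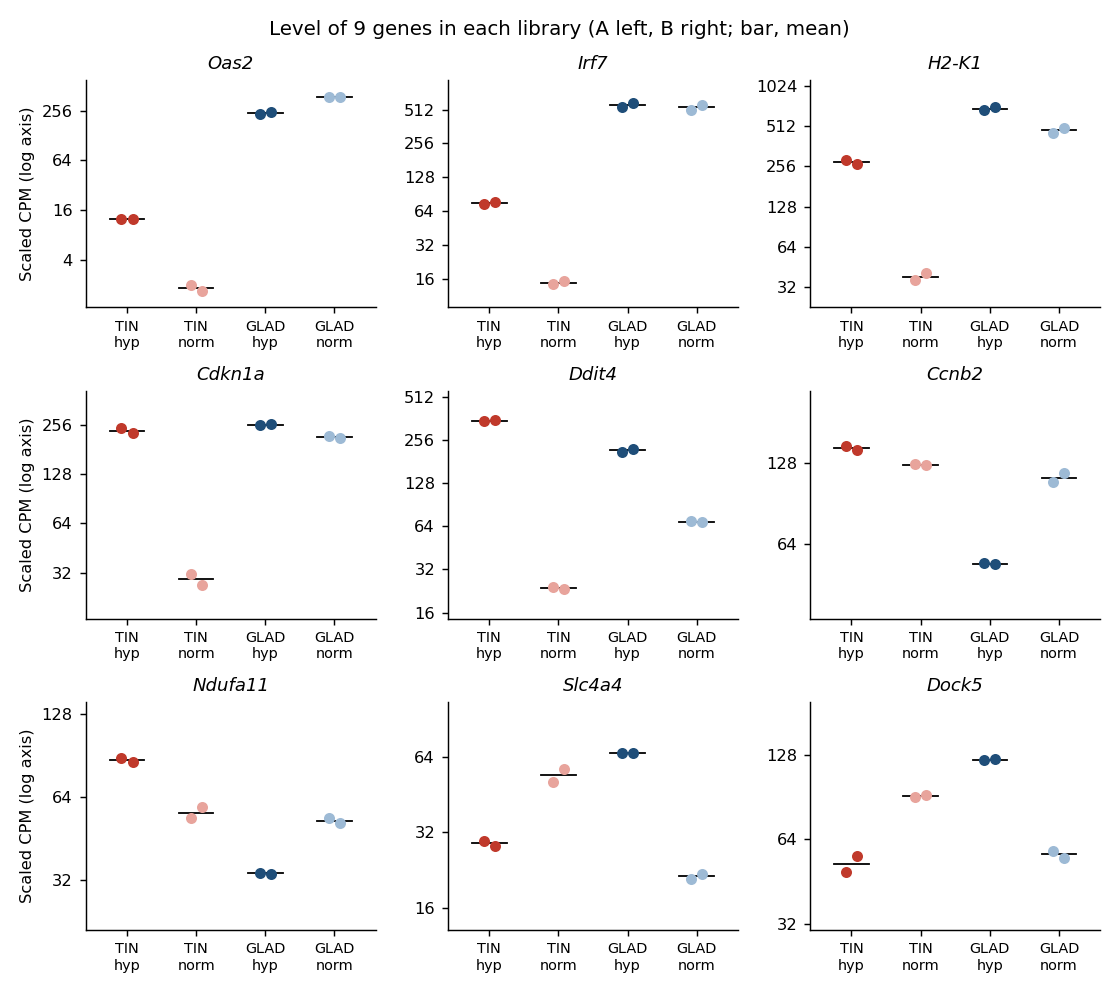
TMM-scaled CPM (log2-spaced axis) of 9 genes in TIN hypoxia, TIN normoxia, GLAD hypoxia and GLAD normoxia, with library A left, library B right and a bar at the mean. Oas2, Irf7, H2-K1 and Cdkn1a were low in the TIN normoxia libraries, Ccnb2 and Ndufa11 were lowest in GLAD hypoxia, and Slc4a4 and Dock5 moved in opposite directions.

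Secreted and inflammatory genes had mostly positive interactions. Of 23 measured, 17 were called positive and 1 negative, with a median interaction of 0.75 and median hypoxia effects of 1.42 in TIN and 0.43 in GLAD cells. In TIN cells 18 rose and 3 fell, and in GLAD cells 13 rose and 5 fell. Of all genes, 28.7% rose and 25.3% fell in TIN cells, and 22.9% rose and 24.9% fell in GLAD cells. The share that fell in GLAD cells was thus close to that over all genes. For the interaction, 18.7% of all genes were positive and 15.9% negative. Lcn2, which binds bacterial iron carriers, was read at 82.1 and 81.8 CPM in TIN hypoxia, 5.70 and 5.81 CPM in TIN normoxia, 114 and 119.6 CPM in GLAD hypoxia and 53.3 and 62.9 CPM in GLAD normoxia. It rose in both lines, with an interaction of 2.72 ± 0.14 (adjusted p = 3.7e-10). The acute-phase protein Saa3 had an interaction of 1.97, the chemokine Ccl7 of 1.22, the cytokine Lif of 1.12 and the adhesion protein Icam1 of 0.99. Ptgs2, the inducible prostaglandin synthase, went the other way at -1.33 ± 0.22 (adjusted p = 2.7e-04), having risen by 1.43 in TIN and 2.75 in GLAD cells. Outside the list, the protease inhibitor Serpina3n had the largest positive value among genes with a mean of at least 5 CPM, at 3.17 ± 0.24 (adjusted p = 5.3e-08). It was read at 7.61 and 5.75 CPM in TIN hypoxia, 0.676 and 0.484 CPM in TIN normoxia, 7.07 and 7.64 CPM in GLAD hypoxia and 9.47 and 11.0 CPM in GLAD normoxia, so hypoxia lay above normoxia in TIN and below it in GLAD cells, without overlap. The matrix protein Tnn (3.15), the lipid carrier Apod (2.78) and the complement protein C4b (2.69) also stood among the 10 largest. Apod was at 5.73 and 4.94 CPM in TIN hypoxia, 0.290 and 0.242 CPM in TIN normoxia, 89.7 and 85.6 CPM in GLAD hypoxia and 73.8 and 84.4 CPM in GLAD normoxia, close to the limit of detection in TIN normoxia.

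Of 24 targets of p53, the transcription factor that restrains damaged cells, 12 were called positive and 2 negative, with a median of 0.39. Over all genes 18.7% were positive and 15.9% negative. Cdkn1a, the cell cycle inhibitor p21 (ENSMUSG00000023067, chromosome 17, 29090976 to 29100727), was read at 247 and 228 CPM in TIN hypoxia, 31.3 and 26.7 CPM in TIN normoxia, 257 and 259.6 CPM in GLAD hypoxia and 219 and 214 CPM in GLAD normoxia. The TIN normoxia libraries were low, and the other 6 lay between 214 and 259.6 CPM. Cdkn1a rose by 3.01 in TIN and 0.25 in GLAD cells, and its interaction was 2.76 ± 0.12 (adjusted p = 8.4e-11). The membrane protein Perp had an interaction of 1.53, the death receptor Fas of 1.34, the antiproliferative factor Btg2 of 1.23 and the stress sensor Sesn2 of 0.96. The negative calls were Aen (-0.64), a nuclease, and Sesn1 (-0.50), both of which fell in TIN cells. Mdm2, the ubiquitin ligase that p53 induces against itself, was not called, at 0.08 (adjusted p = 0.557).

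Genes of mitosis mostly fell with hypoxia in GLAD cells (25 of 35, with 3 rising) and more often rose in TIN cells (18, with 7 falling). Of the 35, 27 had a positive interaction and none a negative one, with a median of 0.54 and median hypoxia effects of 0.21 in TIN and -0.36 in GLAD cells. Of the 35, 10 rose in TIN and fell in GLAD cells, against 2.37% of all genes. For the interaction, 18.7% of all genes were positive and 15.9% negative. Of all genes, 28.7% rose and 25.3% fell in TIN cells, and 22.9% rose and 24.9% fell in GLAD cells. The share of mitosis genes that fell in TIN cells was thus not above that over all genes. The cyclin Ccnb2 (ENSMUSG00000032218, chromosome 9, 70407692 to 70421547) was read at 149 and 143 CPM in TIN hypoxia, 127 and 127 CPM in TIN normoxia, 54.3 and 54.1 CPM in GLAD hypoxia and 109 and 118 CPM in GLAD normoxia. Its TIN hypoxia libraries were the highest and its GLAD hypoxia libraries the lowest, with an interaction of 1.26 ± 0.10 (adjusted p = 1.9e-07). The microtubule depolymerase Kif2c was read at 192 and 186 CPM in TIN hypoxia, 157 and 154 CPM in TIN normoxia, 79.0 and 85.2 CPM in GLAD hypoxia and 132 and 138 CPM in GLAD normoxia. It followed the same order, with an interaction of 1.00 ± 0.10 (adjusted p = 2.0e-06). The kinase Cdk1, which drives entry into mitosis, had an interaction of 0.64. The spindle protein Nusap1 had 0.98, the survivin gene Birc5 0.87 and the spindle kinase Aurka 0.69. The cyclin Ccnb1 fell by 0.58 in TIN and by 1.18 in GLAD cells (interaction 0.60), and the mitotic kinase Plk1 fell by 0.34 in TIN and by 1.11 in GLAD cells (0.77). The proliferation marker Mki67 rose by 1.02 in TIN and 1.03 in GLAD cells, with an interaction of -0.02 (adjusted p = 0.947).

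Cell cycle genes of late phases often carry TTTGAA, the cell cycle homology region bound by the DREAM complex. Searched on both strands, it occurred in 14.4% of tested genes with a promoter and in 20.2% of all genes with one. Of 28 mitosis genes with a promoter in the table, 21 (75%) held it. The windows of Birc5, Nusap1 and Ccnb1 held none. Among 279 genes with a promoter that rose in TIN and fell in GLAD cells 51 (18.3%) held it, and among 192 of the reverse group 23 (12.0%). A match describes the letters alone and says nothing of whether a factor was bound. The 200 bases before the start are shown for 3 mitosis genes with a match, with matches in capitals. Cdk1 (chr10:69352913-69353112, minus strand) has 2 matches, at 71 to 66 and at 15 to 10 bases before the start. Kif2c (chr4:117178773-117178972, minus strand) has 1 on the opposite strand at 103 to 98, and Cdc20 (chr4:118437344-118437543, minus strand), the activator of the anaphase ligase, has 1 at 18 to 13.
Cdk1: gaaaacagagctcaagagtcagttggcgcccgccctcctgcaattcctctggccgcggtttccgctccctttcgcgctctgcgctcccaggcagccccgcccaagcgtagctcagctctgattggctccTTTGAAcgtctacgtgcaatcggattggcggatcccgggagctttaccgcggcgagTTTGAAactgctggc
Kif2c: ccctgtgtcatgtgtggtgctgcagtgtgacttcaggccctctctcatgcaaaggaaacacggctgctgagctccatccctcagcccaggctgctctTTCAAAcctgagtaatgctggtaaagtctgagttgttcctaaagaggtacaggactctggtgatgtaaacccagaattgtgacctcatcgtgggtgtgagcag
Cdc20: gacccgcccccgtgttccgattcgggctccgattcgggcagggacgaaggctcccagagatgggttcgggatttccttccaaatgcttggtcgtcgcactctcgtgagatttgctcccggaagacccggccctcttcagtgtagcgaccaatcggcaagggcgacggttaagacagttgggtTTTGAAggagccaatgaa
Cdc20 had an interaction of 0.77 ± 0.14 (adjusted p = 5.2e-04).

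Nuclear genes of oxidative phosphorylation, the respiratory chain and ATP synthase of mitochondria, also differed in a single direction. Of 69 measured, 54 were called positive and none negative, with a median of 0.55 and median hypoxia effects of 0.09 in TIN and -0.43 in GLAD cells. In TIN cells 17 rose and 7 fell, while in GLAD cells none rose and 60 fell. The shares over all genes were 28.7% and 25.3% in TIN cells and 22.9% and 24.9% in GLAD cells. The share that rose in TIN cells was thus not above that over all genes. For the interaction, 18.7% of all genes were positive and 15.9% negative. Ndufa11, a complex I subunit (ENSMUSG00000002379, chromosome 17, 56717767 to 56722141), was read at 88.7 and 85.8 CPM in TIN hypoxia, 53.7 and 58.7 CPM in TIN normoxia, 33.9 and 33.6 CPM in GLAD hypoxia and 53.4 and 51.5 CPM in GLAD normoxia. It rose in TIN cells and fell in GLAD cells without overlap, with an interaction of 1.26 ± 0.16 (adjusted p = 3.2e-05). The ATP synthase subunit Atp5e had an interaction of 1.2, Ndufa3 of 1.03 and the cytochrome oxidase subunit Cox6c of 0.91. The transcripts of these genes are short, with a median of 875 bases beside 2779 over all genes. Whether the interaction ran with length within the list was not tested. In hypoxia both TIN libraries lay above both GLAD libraries for 68 of the 69 genes, against 41.1% of all genes. The count of 54 became 35 without TIN normoxia library A and 29 when genes of low level were kept.

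Of 12 mitochondrially encoded genes measured, 9 were called positive and none negative, with a median of 1.25. None fell and 3 rose in TIN cells, and none rose and 9 fell in GLAD cells. Of all genes, 28.7% rose and 25.3% fell in TIN cells, and 22.9% rose and 24.9% fell in GLAD cells. The share that rose in TIN cells was thus not above that over all genes. The summed level of the mitochondrially encoded genes was 6657 and 5694 CPM in TIN hypoxia, 7403 and 4567 CPM in TIN normoxia, 3676 and 2448 CPM in GLAD hypoxia and 6012 and 6176 CPM in GLAD normoxia. Library A stood well above B in TIN normoxia and in GLAD hypoxia, and the GLAD hypoxia sums were the lowest. The complex I gene mt-Nd4 was read at 487 and 408 CPM in TIN hypoxia, 542 and 313 CPM in TIN normoxia, 189.7 and 128 CPM in GLAD hypoxia and 390.4 and 429.5 CPM in GLAD normoxia. Its GLAD hypoxia libraries were also the lowest, and its interaction was 1.5 ± 0.29 (adjusted p = 8.5e-04). That of the cytochrome b gene mt-Cytb was 1.19 ± 0.25 (adjusted p = 0.00186). Without TIN hypoxia library A or without TIN normoxia library B, 6 of the 12 were called positive, and 11 were without TIN normoxia library A. Over the 31 genes of the mitochondrial chromosome tested, transfer RNA genes included, 21 (67.7%) were called positive and none negative. In the tricarboxylic acid cycle 5 of 18 were positive (Pdhb 0.50, Suclg1 0.40, Sdhb 0.36, Mdh2 0.35 and Idh2 0.32) and 1 was negative (Pdha1, -0.28). The median was 0.12, and over all genes 18.7% were positive and 15.9% negative. With the length and GC trend of each library removed the list median became 0.0014, with 1 positive and 1 negative call. Without any 1 library other than GLAD hypoxia B, 1 or 2 were positive, and Pdha1 was not called without any 1 of the TIN hypoxia libraries, TIN normoxia B, the GLAD hypoxia libraries or GLAD normoxia A.

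**Figure D3:**
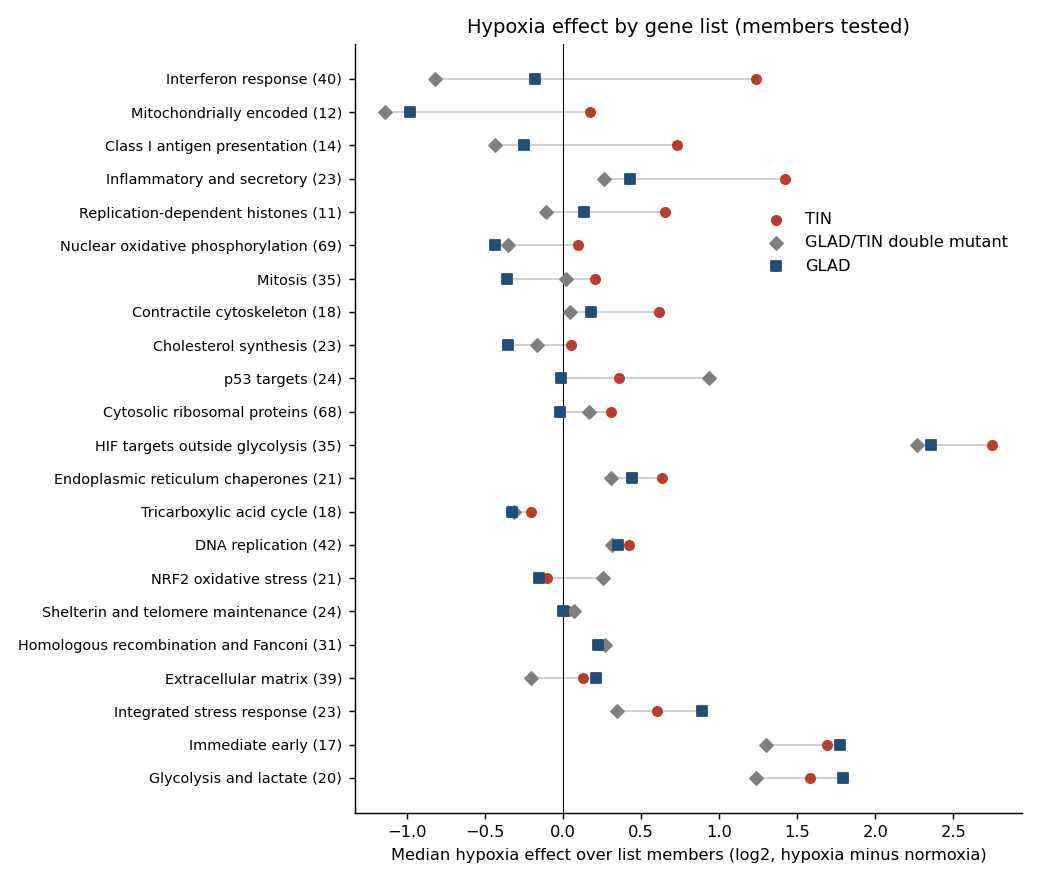
Median hypoxia effect (log2) over the measured members of 22 gene lists in TIN cells (circles), the GLAD/TIN double mutant (diamonds) and GLAD cells (squares), ordered by the median interaction. The interferon list lies at 1.24 in TIN, -0.82 in the double mutant and -0.18 in GLAD cells, while HIF targets lie at 2.75, 2.27 and 2.36 in the same order.

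Targets of HIF outside glycolysis rose in both lines (33 of 35 in TIN and 31 in GLAD cells, against 28.7% and 22.9% of all genes). Their median hypoxia effects were 2.75 in TIN and 2.36 in GLAD cells. For the interaction, 12 were called positive and 8 negative, with a median of 0.15. Over all genes 18.7% were positive and 15.9% negative. The secreted protein Stc1 (2.59), the vasodilator peptide Adm (2.43) and Ddit4, an inhibitor of the growth kinase mTORC1 (2.21), rose more in TIN cells. Ddit4 (ENSMUSG00000020108, chromosome 10, 59949669 to 59951834) was read at 347 and 352 CPM in TIN hypoxia, 24.1 and 23.3 CPM in TIN normoxia, 211 and 222 CPM in GLAD hypoxia and 69.6 and 68.1 CPM in GLAD normoxia. It started lower and ended higher in TIN than in GLAD cells, with no overlap (interaction 2.21 ± 0.11, adjusted p = 3.2e-10). The cell-surface carbonic anhydrase Car9 was read at 204 and 197 CPM in TIN hypoxia, 3.43 and 3.19 CPM in TIN normoxia, 596 and 642 CPM in GLAD hypoxia and 33.6 and 33.8 CPM in GLAD normoxia. It rose by 5.72 in TIN and 4.18 in GLAD cells and stayed lower in TIN, with an interaction of 1.54 ± 0.13 (adjusted p = 3.2e-07). Bnip3, a mitophagy receptor, differed by 0.60 ± 0.11 (adjusted p = 6.8e-04). Negative interactions were found for Stc2 (-1.39), the lipoprotein receptor Vldlr (-1.16), the oxidase Ero1l (-1.16), the oxygen-sensing hydroxylase Egln1 (-1.0) and the histone demethylase Kdm3a (-0.86). The angiogenic factor Vegfa was read at 256 and 252 CPM in TIN hypoxia, 42.3 and 41.8 CPM in TIN normoxia, 267 and 247 CPM in GLAD hypoxia and 35 and 36.2 CPM in GLAD normoxia. Its normoxia and hypoxia libraries were well apart in each line, and its interaction of -0.25 ± 0.10 was not called (adjusted p = 0.0571), though it was called in 7 of the 17 other settings tried, at -0.31 without GLAD hypoxia B among them. Pdk1, a kinase that limits the use of pyruvate by mitochondria, was likewise not called, at -0.30 ± 0.12 (adjusted p = 0.0644), and was called at -0.42 without TIN normoxia A.

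Genes of glycolysis and lactate transport rose in both lines (18 of 20 in each, against 28.7% of all genes in TIN and 22.9% in GLAD cells). Their median hypoxia effects were 1.58 in TIN and 1.79 in GLAD cells. For the interaction, 3 were called positive and 6 negative, with a median interaction of -0.22. Over all genes 18.7% were positive and 15.9% negative, so the share of positive calls was not above that over all genes. Hexokinase Hk2 was read at 199 and 205 CPM in TIN hypoxia, 38.1 and 33.4 CPM in TIN normoxia, 207 and 214 CPM in GLAD hypoxia and 22.9 and 23.7 CPM in GLAD normoxia. The TIN libraries lay just below the GLAD libraries in hypoxia and well above them in normoxia, and the interaction was -0.67 ± 0.14 (adjusted p = 0.00135). The regulatory kinase Pfkfb3 had an interaction of -0.96, the lactate transporter Slc16a1 of -0.72 and Hk1 of -0.60, against 0.58 for Pfkfb4, 0.56 for the lactate exporter Slc16a3 and 0.46 for the isomerase Tpi1. The glucose transporter Slc2a1 (-0.22, adjusted p = 0.104), Pgk1 (-0.24, 0.0743) and Ldha (-0.14, 0.321) were not called. After removal of each library's length and GC trend, 15 of the 20 were called negative and 2 positive, at a median of -0.39, and Slc2a1, Pgk1 and Ldha were then among the negative calls. Without TIN hypoxia B, TIN normoxia B or GLAD hypoxia A, 1 was positive.

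Genes of cholesterol synthesis had 13 positive and no negative calls among 23, with a median of 0.44, and 14 of the 23 fell in GLAD cells against 2 in TIN cells. Fdps, which makes farnesyl diphosphate, was read at 143 and 141 CPM in TIN hypoxia, 149.6 and 142 CPM in TIN normoxia, 54.9 and 55.8 CPM in GLAD hypoxia and 107 and 105 CPM in GLAD normoxia. It fell in GLAD cells alone, with an interaction of 0.89 ± 0.12 (adjusted p = 4.1e-05), and Cyp51, a sterol demethylase, had 0.74. Of 68 genes of cytosolic ribosomal proteins 31 were positive and none negative, at a median of 0.35, with Rpl38 at 0.64. In TIN cells 51 of them rose and none fell, and in GLAD cells 2 rose and 3 fell. Beside both lists, 18.7% of all genes were positive and 15.9% negative. Of all genes, 28.7% rose and 25.3% fell in TIN cells, and 22.9% rose and 24.9% fell in GLAD cells. The count of 31 was 55 with the 8 TIN and GLAD libraries fitted alone, 2 when genes of low level were kept, 14 with the length and GC trend removed, and 2 to 15 without any 1 library other than TIN normoxia B.

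Contractile genes had 9 positive and 3 negative calls of 18 and a median of 0.53, beside 18.7% positive and 15.9% negative over all genes. The share of negative calls among them was close to that over all genes. The myosin light chain Myl9 was read at 9.43 and 11.0 CPM in TIN hypoxia, 1.21 and 1.35 CPM in TIN normoxia, 32.4 and 37.1 CPM in GLAD hypoxia and 26.5 and 28.1 CPM in GLAD normoxia. Hypoxia libraries lay above normoxia libraries in both lines, with a far wider step in TIN cells (interaction 2.24 ± 0.21, adjusted p = 1.1e-06). The actin genes Actg2 (1.45) and Acta2 (0.89) and the smooth muscle gene Tagln (1.05) were also positive. The 3 negative calls were Ccn2 (-0.83), a matricellular growth factor that rose in both lines, and the focal adhesion genes Vcl (-0.73) and Actn1 (-0.60).

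Extracellular matrix genes were called in equal numbers, with 9 positive and 9 negative of 39 and a median of -0.02. Over all genes 18.7% were positive and 15.9% negative. Collagen VI alpha 3, Col6a3 (ENSMUSG00000048126, chromosome 1, 90765923 to 90843971), was read at 631 and 652 CPM in TIN hypoxia, 792 and 760.5 CPM in TIN normoxia, 1420.0 and 1665 CPM in GLAD hypoxia and 547 and 563 CPM in GLAD normoxia. TIN hypoxia lay below TIN normoxia and GLAD hypoxia far above GLAD normoxia, and the interaction was -1.74 ± 0.14 (adjusted p = 1.9e-07). Fibronectin Fn1 (-0.76) and nidogen Nid1 (-0.88) also had negative values, while Postn (1.51), Lama4 (1.13) and elastin Eln (1.94) had positive ones. Eln was at most 1.11 CPM in the TIN libraries, near the limit of detection. With the trend removed, 12 were positive and 6 negative, at a median of 0.07, and 14 were negative with the 8 TIN and GLAD libraries fitted alone.

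Stress pathways showed no common direction, beside 18.7% positive and 15.9% negative calls over all genes. The integrated stress response, which answers amino acid shortage and unfolded proteins, had 7 positive and 5 negative calls of 23 (median -0.05), and with the length and GC trend of each library removed 7 positive and 10 negative (median -0.21). Atf3 rose by 4.29 in TIN and 2.72 in GLAD cells (1.57 ± 0.12, adjusted p = 1.0e-07), and the folate enzyme Aldh1l2 rose in GLAD cells alone (-1.54 ± 0.18, adjusted p = 1.5e-05). The transcription factors Atf4 (0.64) and Ddit3 (0.79) and the phosphatase subunit Ppp1r15a (0.59) were positive. The amino acid transporters Slc7a1 (-0.81) and Slc7a5 (-0.74) and the enzymes Psat1 (-0.57) and Asns (-0.37), for serine and asparagine synthesis, were the other negative calls. Endoplasmic reticulum chaperone genes had 4 positive and 2 negative calls of 21 (median 0.13), namely Herpud1 (0.81), Syvn1 (0.66), Dnajb11 (0.60) and Creld2 (0.59) against Sel1l (-0.61) and Canx (-0.48). The share of positive calls among them was close to that over all genes. Negative calls numbered 1 without TIN hypoxia B and 4 with the 8 TIN and GLAD libraries fitted alone, and 8 genes were positive with the trend removed. Antioxidant targets of NRF2 had 5 positive and 3 negative of 21 (median 0.07), the negative ones being the glutathione synthesis enzyme Gclc (-1.13), the efflux pump Abcc1 (-1.07) and the glutathione reductase Gsr (-0.46). Among the positive ones were Taldo1 (0.64), thioredoxin Txn1 (0.59), Prdx1 (0.54), ferritin Fth1 (0.48) and Gstm1 (0.45). With the 8 libraries fitted alone 8 were positive, and with the trend removed 5 were positive and 5 negative, at a median of -0.03. Immediate early genes had 6 positive and 4 negative of 17 (median -0.12), with Fosb at 1.03, and Egr1 (-0.98), Klf4 (-0.97), Egr2 (-0.83) and Myc (-0.57) negative. In TIN cells 16 of the 17 rose and in GLAD cells all 17 did, against 28.7% and 22.9% of all genes.

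Among shelterin and telomere maintenance genes 5 of 24 were positive and 6 negative, with a median of 0.02, beside 18.7% positive and 15.9% negative over all genes. With the trend removed 3 were positive and 7 negative, at a median of -0.05. The helicase Pif1, which removes telomerase from DNA ends, was read at 13.5 and 11.4 CPM in TIN hypoxia, 28.3 and 22.9 CPM in TIN normoxia, 5.48 and 5.49 CPM in GLAD hypoxia and 29.6 and 27.3 CPM in GLAD normoxia. It fell in both lines and further in GLAD cells, with an interaction of 1.26 ± 0.19 (adjusted p = 1.0e-04). The tankyrases Tnks (-1.04 ± 0.16, adjusted p = 1.3e-04) and Tnks2 (-0.96), which modify TRF1 with ADP-ribose, and the chromatin remodeller Atrx (-0.98) had the most negative values. Their transcripts are 9163, 6481 and 10275 bases long. Tnks was read at 92.3 and 100.3 CPM in TIN hypoxia, 161 and 170.3 CPM in TIN normoxia, 149 and 154 CPM in GLAD hypoxia and 128 and 125 CPM in GLAD normoxia, so the TIN hypoxia libraries were the low ones. The shelterin genes Tinf2 (0.34), Terf2ip (0.20), Acd (0.12) and Pot1a (-0.20) were not called. Terf2, encoding the other telomere-binding shelterin protein, was called at 0.41, as were Daxx (0.49), Wrap53 (0.46) and Ctc1 (0.36), and, negative, the helicases Blm (-0.64) and Wrn (-0.48) and the telomerase RNA protein Dkc1 (-0.46). Without TIN normoxia B, GLAD hypoxia A or GLAD normoxia B, 2 telomere genes were positive. DNA replication genes had 12 positive and 7 negative calls of 42 (median 0.12), with Rrm2, a subunit of the enzyme that makes deoxynucleotides, at 0.77 and the flap nuclease Fen1 at 0.72. The replicative helicase and origin genes Mcm3, Mcm4, Mcm5, Orc1 and Orc2 were among the negative calls, at -0.47 to -0.27. Without any 1 library other than GLAD hypoxia A 4 were negative, and without GLAD normoxia B 7 were positive. Homologous recombination and Fanconi genes had 2 positive (Fancg 0.65, Rad51c 0.47) and 3 negative (Palb2 -0.65, Exo1 -0.47, Brca1 -0.45) of 31, with a median of 0.01. After removal of the trend 10 were positive and 1 negative, and with the 8 libraries fitted alone 8 were positive and 6 negative. With TIN hypoxia B, TIN normoxia A, either GLAD hypoxia library or either GLAD normoxia library left out 1 was positive, and without GLAD normoxia A 1 was negative. Replication-dependent histones had 3 positive of 11 and none negative (median 0.57), Hist2h3c1 (0.88), Hist1h2bc (0.78) and Hist1h4i (0.72). None was called without TIN normoxia A or without GLAD hypoxia B, and 1 was without TIN hypoxia B or either GLAD normoxia library.

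Among genes with a mean of at least 5 CPM and a standard name, the 10 with the largest negative interaction held 8 with transcripts of 3991 bases or more. The median over all genes was 2779. Trpm2, a calcium channel (ENSMUSG00000009292, chromosome 10, 77907722 to 77970563), was read at 3.24 and 2.32 CPM in TIN hypoxia, 0.0966 and 0 CPM in TIN normoxia, 33.6 and 33.6 CPM in GLAD hypoxia and 0.146 and 0.490 CPM in GLAD normoxia. It rose in both lines, and TIN normoxia and 1 GLAD normoxia library were below the limit of detection. With the 0.5 CPM added before the logarithm the interaction was -2.84 ± 0.39 (adjusted p = 4.7e-05), and with 0.1 CPM added it was -2.13 and no longer called (adjusted p = 0.068). The aminopeptidase Lnpep was read at 11.2 and 10.7 CPM in TIN hypoxia, 46.7 and 62.4 CPM in TIN normoxia, 59.8 and 54.7 CPM in GLAD hypoxia and 57.6 and 53.9 CPM in GLAD normoxia. The TIN hypoxia libraries alone were low (-2.29 ± 0.32, adjusted p = 6.7e-05). The same held for Zbed6 (-2.29), a DNA-binding protein, Lmbrd2 (-2.10), a membrane protein, and Aff2 (-2.18), a nuclear protein, and Far1os (-2.20) was high in TIN normoxia alone. Zbed6 lies within another gene and Far1os is an antisense transcript, and without a stated strand setting their reads cannot be separated from those of their partners.

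Reversed genes with a mean of at least 5 CPM and a standard name were ranked by the smaller of their 2 effects. The first 8 in each direction are given. Genes outside these limits, such as Galnt9 (1.72 in TIN and -1.19 in GLAD cells), were not ranked. Among genes that rose in TIN and fell in GLAD cells, Serpina3f, a protease inhibitor, was read at 7.45 and 8.72 CPM in TIN hypoxia, 3.23 and 3.05 CPM in TIN normoxia, 8.91 and 10.8 CPM in GLAD hypoxia and 24.8 and 24.1 CPM in GLAD normoxia (1.23 in TIN and -1.27 in GLAD cells). Islr, a membrane protein of mesenchymal cells, was at 4.92 and 4.74 CPM in TIN hypoxia, 1.83 and 1.55 CPM in TIN normoxia, 13.1 and 14.3 CPM in GLAD hypoxia and 30.9 and 34.3 CPM in GLAD normoxia (1.28 and -1.22 in the same order). In both genes hypoxia and normoxia libraries were apart in each line, in opposite order. The interferon-induced GTPases Ifi47 (1.44 in TIN and -1.04 in GLAD cells), Iigp1 (1.44 and -0.99) and Irgm2 (1.01 and -0.84) stood beside Ifi27l2a (1.69 and -1.01), the LIM protein Crip2 (1.16 and -0.92) and Gas6, a ligand of receptor kinases (0.88 and -1.31). Ifi47 ranged from 0.436 to 2.87 CPM in TIN cells, near the limit of detection. The Serpina3, Ifi27 and GTPase genes have close copies, so reads may be split between them.

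Among genes that fell in TIN and rose in GLAD cells, the bicarbonate transporter Slc4a4 (ENSMUSG00000060961, chromosome 5, 88886818 to 89239653) was read at 29.7 and 28.3 CPM in TIN hypoxia, 50.8 and 57.3 CPM in TIN normoxia, 66.0 and 66.2 CPM in GLAD hypoxia and 20.9 and 21.8 CPM in GLAD normoxia. Hypoxia libraries were the lower pair in TIN and the higher pair in GLAD cells, with an interaction of -2.49 ± 0.23 (adjusted p = 6.1e-07). Dock5, an activator of the GTPase Rac (ENSMUSG00000044447, chromosome 14, 67752135 to 67933442), was read at 48.7 and 55.6 CPM in TIN hypoxia, 90.7 and 91.9 CPM in TIN normoxia, 122 and 123 CPM in GLAD hypoxia and 58.0 and 55.0 CPM in GLAD normoxia. It showed the same crossing, with -0.80 in TIN and 1.11 in GLAD cells and an interaction of -1.92 ± 0.12 (adjusted p = 5.8e-09). The semaphorin receptor Plxna2 (-0.99 in TIN and 1.08 in GLAD cells), Psd3 (-1.03 and 0.94), the GTPase-activating protein Arhgap5 (-1.09 and 0.81), Lancl3 (-1.12 and 1.04), Apol7d (-1.37 and 0.95) and the scaffold gephyrin, Gphn (-0.83 and 0.79), made up the 8. Their transcripts ran up to 11319 bases for Psd3 and 11040 for Plxna2, with Gphn at 3570 and Apol7d at 1193. Lancl3 was at 0.756 to 3.10 CPM in TIN cells, and Apol7d has close copies. Slc4a4 was not called in the double mutant (-0.32).

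The GLAD/TIN double mutant carries both sets of substitutions and was not part of the contrast, so its hypoxia effect on these genes comes from other libraries. Over all genes it raised 4389 (27.2%) and lowered 4663 (28.9%). Of the 383 genes that rose in TIN and fell in GLAD cells, 226 (59.0%) fell and 26 (6.79%) rose in the double mutant, with a median effect of -0.34. Of the 284 that fell in TIN and rose in GLAD cells, 195 (68.7%) rose and 12 (4.23%) fell, with a median of 0.41. The same order held over all 3023 positive genes, of which 569 rose (18.8%) and 1404 fell (46.4%), and over the 2567 negative genes, of which 1123 rose (43.7%) and 469 fell (18.3%). On these genes the double mutant thus moved in the direction of GLAD cells more often than in that of TIN cells. The interferon list had a median of -0.82 and mitochondrially encoded genes of -1.14 in the double mutant. Cdkn1a went the other way, with an effect of 2.34 beside 3.01 in TIN and 0.25 in GLAD cells, and p53 targets had a median of 0.93. Crip2 and Perp also rose in the double mutant, by 1.02 and 1.5.

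The interaction ran with transcript length. Over 16117 genes with a length in GENCODE M21 (the longest basic transcript), Spearman's rank correlation between the interaction and length was -0.335, and it was -0.473 over 13118 protein-coding genes and -0.522 over 10493 genes with a mean of at least 10 CPM. These are descriptions across genes, which are not independent replicates. Length ran with the TIN effect at -0.218, with the GLAD effect at 0.0984 and with the double-mutant effect at 0.055. Between the lines it ran at -0.326 with the TIN minus GLAD difference in hypoxia and at -0.0768 with that in normoxia. The interaction also ran with GC content, at 0.271.

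Genes were put in 5 bins of 3223 or 3224 by length. From the shortest to the longest bin the median interaction was 0.26, 0.24, 0.10, -0.03 and -0.30. In the same order the positive calls were 25.1%, 28.3%, 19.9%, 14.1% and 6.30%, and the negative calls 6.64%, 5.31%, 9.12%, 18.4% and 39.9%. The longest bin, with transcripts of 4742 bases and more, held 195 of the genes that fell in TIN and rose in GLAD cells and 17 that did the reverse, while the shortest held 14 and 114. Median length was 2042.5 bases in positive calls, 4756.5 in negative calls and 2690.0 in genes not called. Over 9881 protein-coding genes at 10 CPM or more, the interaction ran at -0.56 with the whole transcript, -0.44 with the coding part, -0.40 with the 3′ UTR, -0.13 with the 5′ UTR, -0.36 with the number of exons and -0.52 with the span of the gene on the chromosome.

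**Figure D4:**
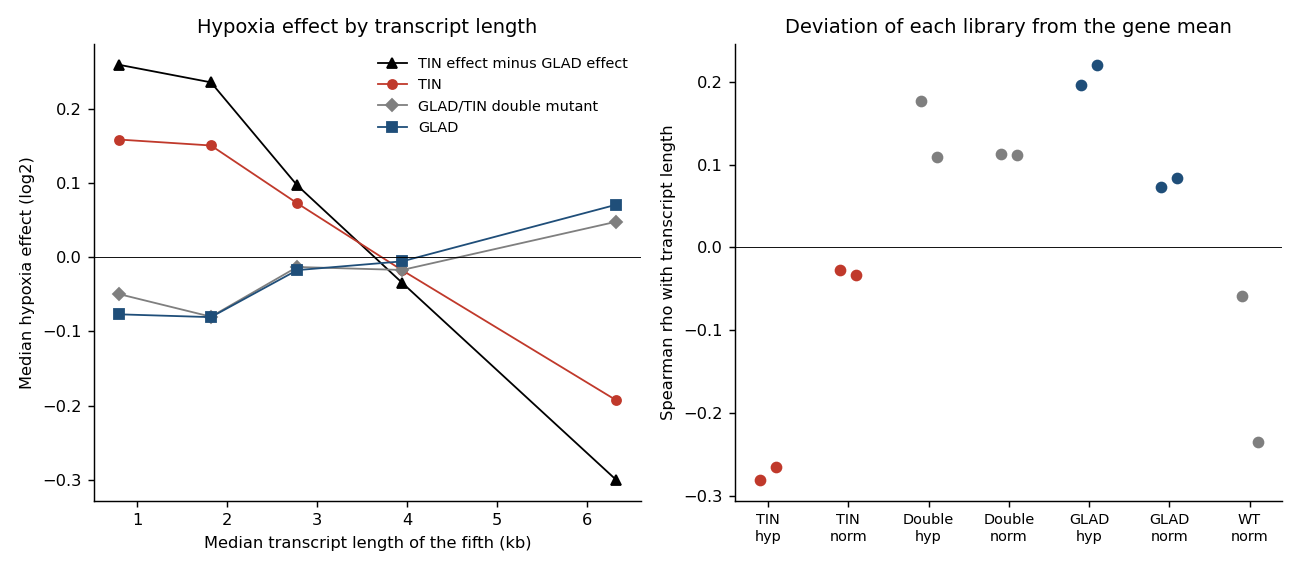
Left, median hypoxia effect (log2) in 5 bins of genes by transcript length (kb) for the interaction, TIN, the double mutant and GLAD. Right, Spearman's rank correlation of transcript length with each library's deviation from the gene mean over 14 libraries, where the TIN hypoxia libraries stand at -0.28 and -0.27 and the GLAD hypoxia libraries at 0.20 and 0.22.

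Library by library, the deviation of each gene from its mean over the 14 libraries ran with length at -0.28 and -0.27 in TIN hypoxia, -0.03 and -0.03 in TIN normoxia, 0.20 and 0.22 in GLAD hypoxia and 0.07 and 0.08 in GLAD normoxia. The hypoxia libraries of the 2 lines thus stood on opposite sides and the normoxia libraries close to 0. Outside the contrast, library B of the cells labelled wild-type NMR TRF1 stood at -0.23 and library A at -0.06. RNA integrity was not analysed here, and its part in the gradient was not tested.

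When the trend of each library on length and GC content was removed, 5219 genes were called and 601 were reversed, and the rank correlation with length became -0.0209. Of the 3018 positive calls with a length 2175 kept their direction and call, of 2560 negative calls 1786 did, and none changed direction. Of the reversed genes, 247 of 382 that rose in TIN cells and 136 of 284 that fell remained. The interferon list had 35 positive calls of 40 and a median of 1.43, class I genes 13 of 14 at 1.01, inflammatory genes 17 of 23 at 0.75 and mitochondrially encoded genes 9 of 12 at 1.18. Mitosis, with a median transcript of 3398 bases, moved to 31 of 35 at 0.58. The oxidative phosphorylation list, with a median of 875 bases, moved to 38 of 69 at 0.34 and the ribosomal proteins, with 925.5 bases, to 14 of 68 at 0.15. Removing the trend also removes any biological difference that follows length, and which share of the gradient is of that kind was not tested.

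**Figure D5:**
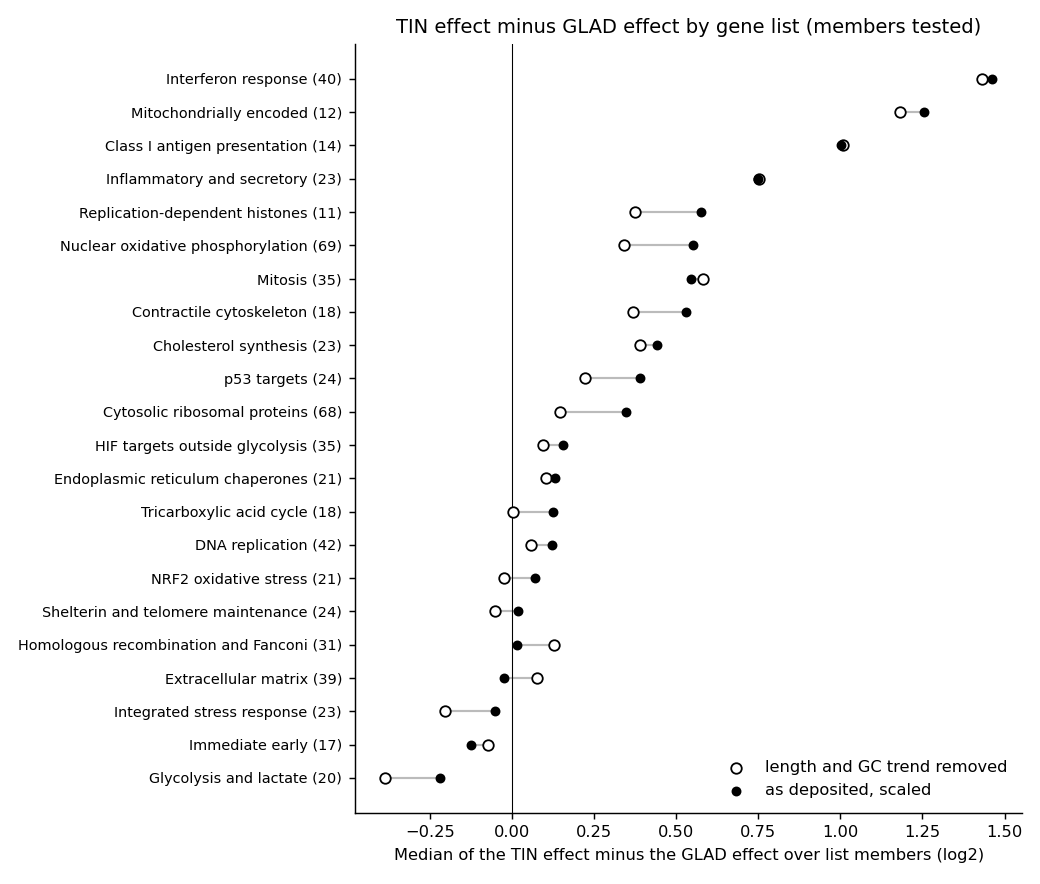
Median interaction (log2) over the measured members of 22 gene lists, with scaled CPM as deposited (filled) and with the length and GC trend of each library removed (open). The interferon list stands at 1.46 as deposited and 1.43 with the trend removed, mitosis at 0.54 and 0.58, oxidative phosphorylation at 0.55 and 0.34, and ribosomal proteins at 0.35 and 0.15.

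By gene type, 20.8% of 13118 protein-coding genes were positive and 16.8% negative. Antisense transcripts had 10.4% positive and 15.4% negative of 950, and long intergenic RNAs 10.8% and 10.5% of 400. By chromosome, the share of positive calls was highest on the mitochondrial chromosome and, among the others, on chromosome 17 (24.6% of 755), whose median transcript of 2520 bases was the shortest of the nuclear chromosomes. The share of negative calls was highest on chromosome 18 (23.6% of 407), whose median transcript of 3493 bases was the longest of any chromosome.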

How the data were processed

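RNA of 14 libraries of transformed mouse embryonic fibroblasts, 2 in each of 7 groups, was sequenced, and the authors deposited 1 table of CPM values per gene (counts relative to the library total). Per the submitters' processing notes, STAR and HTSeq and the builds GRCm38.p4 and mm10 were used; versions, strand setting and annotation release are not given in the sources used here. All columns of the table were used. Each library's CPM values were close to whole multiples of a step, from which its reads were estimated (floors of 3 reads, counting error only), but whole reads were not taken as recovered. The planned count-based tests were therefore not run.

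Genes reaching 1 CPM in 2 or more libraries were kept, scaled by TMM factors (trims of 30% and 5%, coded for this work) and analysed as log2(CPM + 0.5), which understates the hypoxia effects of low genes. Their interaction, a difference between 2 such effects, can be moved either way. limma 3.58.1 in R 4.3.3 fitted 7 group means to 14 libraries (7 residual and 10.5 prior degrees of freedom), with Benjamini-Hochberg adjustment over 16157 genes and calls at 0.05. The code was tested on simulated data. Per-library levels are TMM-scaled CPM, and marker levels are CPM as deposited.

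The contrast, the 22 gene lists and the 7 marker lists were chosen with earlier results of these data known, so counts over lists are descriptions. Among genes with a mean of at least 5 CPM and a standard name, the rule for named genes took the 10 largest interactions in each direction, the 8 reversed genes in each direction with the largest smaller effect, up to 4 called members of each list with the largest interaction, and 17 preset genes. Other list members were named with their values in view. Lengths and GC are those of the longest basic transcript of GENCODE M21 (GRCm38). The length and GC trend was fitted per library with splines of 4 degrees of freedom. Promoter sequences and their coordinates are from RefSeq (GRCm38.p6). Other settings changed the scaling, pseudocount, filter, libraries fitted, replicate block and trend, and left out each of the 8 libraries in turn.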

Additional observations from a re-analysis of the deposited data

Results flagged for a closer look

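The hypoxia effect differed between TIN and GLAD cells by the interaction test itself in 5590 genes, and in 667 of them both single effects were called, in opposite directions. Reversals were ranked among genes with a mean of at least 5 CPM and a standard name. The interaction over the 8 first-ranked reversals with a rise in TIN cells was 2.70 for Ifi27l2a, 2.51 for Serpina3f, 2.50 for Islr, 2.48 for Ifi47, 2.43 for Iigp1, 2.19 for Gas6, 2.08 for Crip2 and 1.85 for Irgm2. Over the 8 with a fall in TIN cells it was -2.49 for Slc4a4, -2.32 for Apol7d, -2.16 for Lancl3, -2.08 for Plxna2, -1.97 for Psd3, -1.92 for Dock5, -1.90 for Arhgap5 and -1.62 for Gphn. All 16 passed an adjusted p of 0.05 for the interaction term in limma, but this was a condition of their selection. It gives no further test of them. Groups of 2 libraries allow no check for a single library that stands apart.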

How the results depend on the processing

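The 5590 calls became 3867 to 4457 and the 1194 calls of at least 2-fold became 1036 to 1221 when 1 library was left out, and the length correlation of -0.335 stayed between -0.3441 and -0.3194. The count of 667 reversed genes became 384 to 460 on leaving out a library, 1334 with the 8 TIN and GLAD libraries fitted alone and 401 without a filter on low values. With 2 CPM in place of 0.5 CPM added before the logarithm 590 genes reached 2-fold. With the 8 TIN and GLAD libraries fitted alone 7666 genes were called, and without a filter on low values 4442 were. The full fit takes its spread from all 7 groups. The SD between A and B was 0.24 (log2) in the cells labelled wild-type and 0.19 in double-mutant hypoxia. It was 0.16 in double-mutant normoxia and 0.15 to 0.16 in the TIN and GLAD groups. The correlation with length was -0.0209 with the length and GC trend removed, which is what that setting takes out, and -0.1505 without a filter. For the other changes the cause was not tested. The labels do not say that libraries of the same letter belong together. Their A minus B deviations correlated at 0.16 between the GLAD groups, at 0.004 between the TIN groups and at -0.097 to 0.16 over all pairs of the 7 groups, so no pairing was taken from the letters. With the letter as a block 5693 genes were called and 703 were reversed. For the 123 genes named by rule, 17 settings gave 2091 values, of which 2022 kept their call, 53 lost it, 16 gained it and none changed direction. Medians of 3 lists near 0 did change sign with the length and GC trend removed, to 0.07 for extracellular matrix, -0.05 for telomere maintenance and -0.03 for NRF2 targets, against -0.02, 0.02 and 0.07, and the balance of calls turned for the integrated stress response (7 positive and 10 negative, against 7 and 5) and homologous recombination (10 and 1, against 2 and 3). With the 8 TIN and GLAD libraries fitted alone, negative calls also became 10 for glycolysis, 4 for p53 targets and 5 for contractile genes, and 5 histones were positive. When genes of low level were kept, positive calls became 1 for glycolysis, 1 for the tricarboxylic acid cycle, 3 for telomere maintenance, 1 for homologous recombination and 0 for histones. Calls were lost in at least 1 setting for Chac1, Exo1, Hist1h2bc, Mdh2, Palb2, Rad51c, Rpl35, Rps21, Sdhb, Suclg1 and Trpm2, and gained for Ldha, Pdk1, Pgk1, Slc2a1 and Vegfa. The count-based alternatives and their filters were not run, because the values are CPM. With 2 libraries per group and the depth given, differences in genes near 0.2 CPM were not detectable.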
